A study of Mus musculus with 12 samples.

Results

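The cytosolic nucleic acid sensors described here are 9 genes of the 55471 in the merged count table, chosen by symbol: *Ddx58* (RIG-I), *Ifih1* (MDA5), *Dhx58* (LGP2), *Mavs*, *Zbp1*, *Eif2ak2* (PKR), *Adar*, *Trex1* and *Samhd1*. They were measured by RNA-seq in dendritic cells (DCs) that were derived from mouse bone marrow. The marrow of C57BL/6 mice was cultured with the growth factor GM-CSF, and a retrovirus brought in a short hairpin RNA. The shControl hairpin is directed against firefly luciferase, and the sh*Ppargc1b* hairpin against *Ppargc1b*, which encodes PGC-1β, a co-activator of transcription. Cells of both kinds were sorted by a human CD8 reporter. They received no stimulus or interferon-β (IFN-β), the latter over 6 h, which gave 4 groups of 3 libraries. The mice were female and between 8 and 20 weeks old. All 4 groups therefore carry a retrovirus and a hairpin, and the knockdown in these libraries lowers the target mRNA without removing it. The labels give the target of each hairpin, but not which *Ppargc1b* hairpin was used or which libraries came from separate cultures, so p-values measure only the spread between these samples, which may be technical.

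RIG-I and MDA5 are helicases that bind double-stranded RNA in the cytosol and signal through MAVS, an adaptor on the outer mitochondrial membrane, to induce type I interferon. LGP2 is a related helicase without the signalling domain, which modulates both. ZBP1 binds Z-form nucleic acid and can start cell death, PKR is a kinase that halts translation when it binds double-stranded RNA, and ADAR edits adenosine to inosine in such RNA. TREX1 is a DNA exonuclease and SAMHD1 a dNTP triphosphohydrolase, and both limit the nucleic acid that could set off the sensors. Several of these genes are known targets of interferon, which acts through the interferon-stimulated response element (ISRE) in their promoters.

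The ISRE letters were looked for in the promoters, because 7 of the 9 genes rose with IFN-β. The core was written TTTCNNTTTC, or GAAANNGAAA on the other strand, and was searched on both strands of the RefSeq window from 250 bases before to 50 bases after each start (GRCm38.p6). Windows were at hand for 7 of the 9 genes, and 3 of these held the core, all 3 downstream of the annotated start, as against 3.99% of 27025 genes with a window. The 3 stretches are shown with the core in capitals, each written 5′ to 3′ on the strand of the gene.
Ddx58: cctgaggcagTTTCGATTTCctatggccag
Ifih1: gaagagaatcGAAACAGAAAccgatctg
Eif2ak2: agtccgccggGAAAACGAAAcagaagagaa
The *Ddx58* stretch lies at chr4:40239804-40239833 and its core begins 2 bases after the start. The *Ifih1* stretch lies at chr2:62646206-62646233 with the core 32 bases after the start, and the *Eif2ak2* stretch lies at chr17:78882535-78882564 with the core 18 bases after the start. All 3 genes are on the minus strand. Only the *Ddx58* core was also preceded by AG, a longer form (AGTTTCNNTTTC) that 0.303% of genes with a window held. The windows of *Mavs*, *Adar*, *Trex1* and *Samhd1* held no match to these letters.

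The genes lie on 6 chromosomes, and positions below are from GENCODE M21 (GRCm38). *Ifih1* (chr2:62595798-62646255, minus), *Mavs* (chr2:131234063-131248025, plus), *Samhd1* (chr2:157097533-157135265, minus) and *Zbp1* (chr2:173206612-173218923, minus) share chromosome 2. *Ddx58* is at chr4:40203773-40239828 (minus), *Dhx58* at chr11:100694884-100704271 (minus), *Eif2ak2* at chr17:78852564-78882573 (minus), *Adar* at chr3:89715022-89753446 (plus) and *Trex1* at chr9:109057933-109059734 (minus). A gene that shares exon sequence with another cannot always be counted. All 1147 bp of the exons of *Trex1* also lie in exons of *Atrip* on the same strand, and *Trex1* had 0 counts in each of the 12 libraries. *Atrip*, a checkpoint gene, had between 322 and 683 counts. A count of 0 is what such a gene gets where read pairs on more than 1 gene are not assigned. It says nothing of the expression of *Trex1*, so that *Trex1* was not tested and 8 genes remained. On the opposite strand, *Adar* shares 16.81% of its exon sequence with *Chrnb2*, *Eif2ak2* 4.32% with 2 noncoding genes and *Dhx58* 4.31% with *Dhx58os*, which had at most 11 counts. Whether the counting used strand is not given in the sources used here, so reads of those stretches could not be told apart by gene.

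Libraries held between 49919648 and 77726101 counted read pairs, and the 8 tested genes had between 1400 and 139504 counts in each library. Levels are given as CPM (a gene's share of the counts of its library, after TMM scaling of library sizes), and as CPM per kilobase of merged exon where genes are compared with each other. *Ppargc1b* itself stood at 56.3% of shControl in unstimulated sh*Ppargc1b* cells and at 67.2% in IFN-β-treated ones (edgeR adjusted p = 3.2e-05 and 0.00095). Markers of cell types differed between hairpins. The summed level of 10 dendritic-like markers was 1212 to 1351 CPM in unstimulated shControl and 1525 to 1596 in unstimulated sh*Ppargc1b* libraries, and 1315 to 1440 and 1769 to 1866 with IFN-β. *Itgax* alone had means of 949 and 1137 CPM without IFN-β. Of the 9 tested dendritic-like markers, 5 were called higher and 1, *Cd24a* (-0.52), lower without IFN-β. With it, 6 were called higher and none lower. The summed level of 11 macrophage-like markers was lower in sh*Ppargc1b* libraries, at 2394 to 2477 against 2594 to 2770 CPM without and 2788 to 3004 against 3227 to 3480 with IFN-β. Of the 11 macrophage-like markers, 3 were called lower and 1 higher without IFN-β and 5 lower and 1 higher with it. Much of the drop in the sum was *Mrc1*, a lectin receptor (-1.51 and -1.42 on the log2 scale), while *Cd14* was called higher (0.44 and 0.23). Without IFN-β the sums of plasmacytoid-like (119 to 144 against 184 to 208 CPM), mast cell or basophil-like (8.80 to 17.7 against 22.3 to 26.7 CPM) and T, B and NK cell-like markers (0.901 to 1.37 against 1.49 to 1.78 CPM) were also higher in sh*Ppargc1b* libraries without overlap. The neutrophil-like sum ranged from 41.1 to 88.7 CPM in shControl and from 87.7 to 152 CPM in sh*Ppargc1b* libraries. Most of the plasmacytoid-like sum was *Tcf4* (means of 96.1 against 142 CPM) and *Bst2* (32.8 against 49.2 CPM). Both genes also rose with IFN-β in shControl cells (log2 fold changes 1.05 and 2.52). *Ccr9* and *Pacsin1* of that list were not called between hairpins, and *Siglech* and *Ly6d* were not tested. With IFN-β the T, B and NK cell-like (1.57 to 1.62 against 2.12 to 3.30 CPM) and erythroid-like sums (11.4 to 12.7 against 18.9 to 22.6 CPM) did not overlap, and the eosinophil-like and proliferation sums overlapped in both treatments. No marker of these lists was at 0 in all libraries. The part of these shifts in the differences between hairpins below was not tested. In bulk RNA, fewer cells of a type and less RNA per cell cannot be told apart.

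In unstimulated shControl DCs all 8 genes were expressed, and *Samhd1* was far above the others. Per kilobase, *Samhd1* had 71.6 ± 4.17 CPM (SD, n = 3). *Eif2ak2* followed at 24.1 ± 0.365, then *Ddx58* at 19.2 ± 2.34 and *Zbp1* at 16.0 ± 0.626 CPM per kilobase. These 4 did not overlap. *Adar* (12.9 ± 0.598) and *Ifih1* (12.1 ± 1.04) overlapped, and *Mavs* (10.5 ± 0.418) and *Dhx58* (9.47 ± 0.619) were the lowest, with ranges that did not overlap but nearly met. The order depends on the length used, except that *Samhd1* was first with merged exon, coding length or the longest transcript. With the longest transcript, *Ddx58* passed *Eif2ak2*, *Zbp1* fell from 4th to 6th place and *Mavs* was last in place of *Dhx58*.

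IFN-β raised 7 of the 8 genes in shControl cells and the same 7 in sh*Ppargc1b* cells, and *Mavs* was the exception in both. Of all 18228 genes tested, 23.7% were called higher in shControl cells and 21.4% in sh*Ppargc1b* cells (edgeR quasi-likelihood test, Benjamini-Hochberg adjusted p under 0.05). The treated and untreated libraries did not overlap for any of the 7, where 27.2% and 24.7% of all genes were higher without overlap. The median log2 fold change of the 8 genes was 2.24 for shControl and 1.95 for sh*Ppargc1b*. Over all genes it was -0.03 and -0.02.

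**Figure D1:**
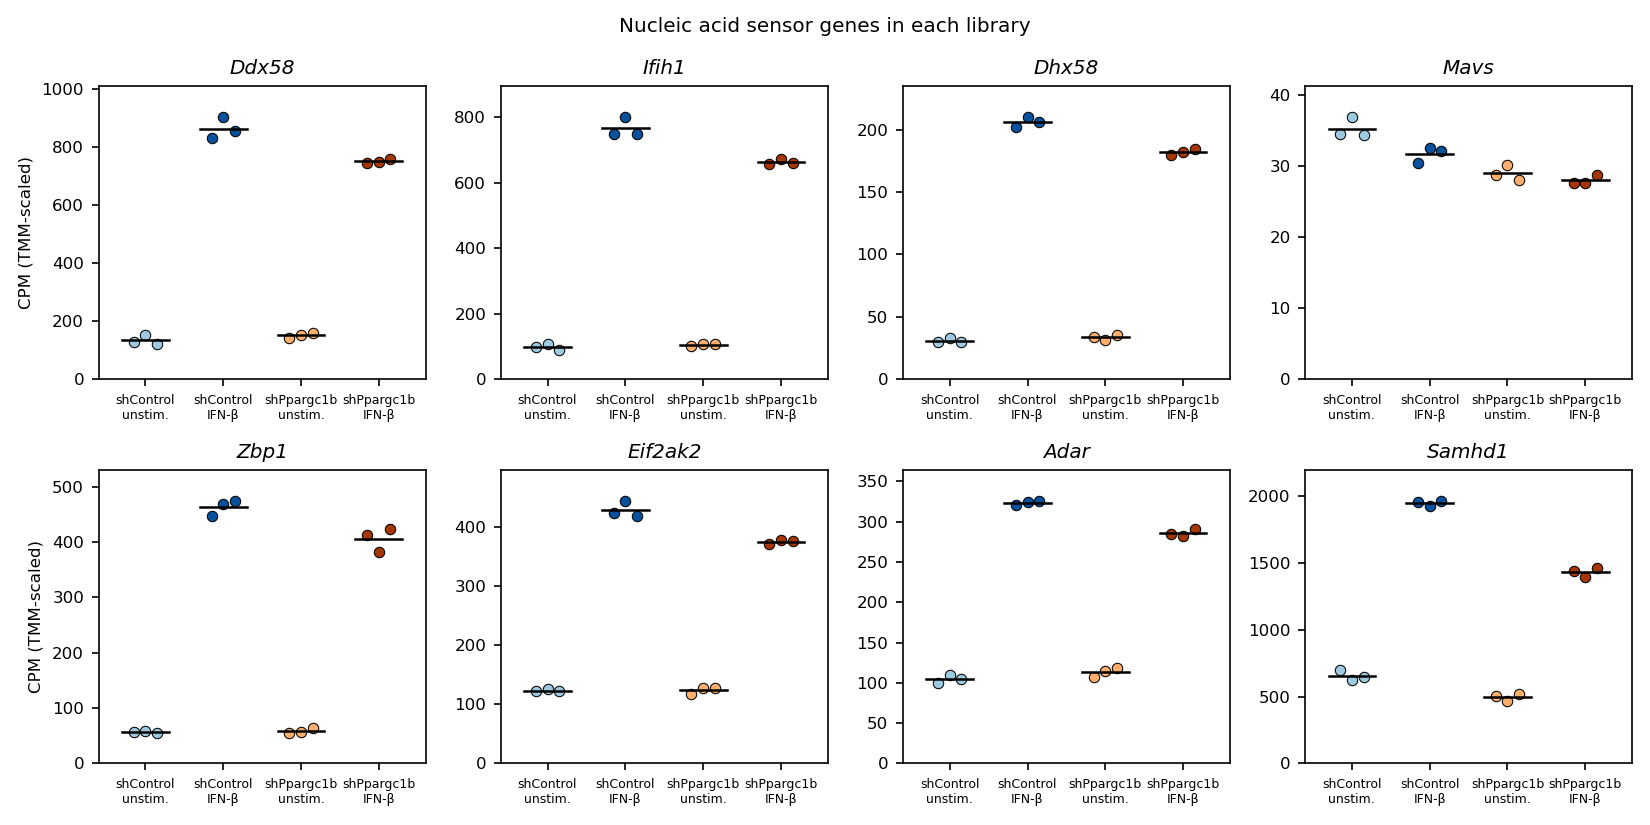
Level of each gene in each library, in TMM-scaled CPM on a linear axis from 0, with 1 point per library, 3 libraries per group and the bar at the group mean. IFN-β-treated libraries lie far above unstimulated ones for every gene shown except *Mavs*, and among the treated libraries the 3 sh*Ppargc1b* points lie below the 3 shControl points in all 8 panels.

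Among the receptors, *Ddx58* had 130, 153 and 121 CPM in the unstimulated shControl libraries and 831, 904 and 856 CPM in the treated ones. In sh*Ppargc1b* cells it had 143, 154 and 160 CPM without and 747, 751 and 759 CPM with IFN-β. The unstimulated libraries of the hairpins overlap and the treated ones do not. The rise of *Ddx58* was 6.40-fold in shControl cells (log2 fold change 2.68, SE 0.07) and 4.94-fold in sh*Ppargc1b* cells (2.31, SE 0.07), with edgeR adjusted p = 6.9e-14 and 4.6e-13.

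*Ifih1*, whose product prefers long double-stranded RNA, had 98.2, 107 and 90.5 CPM in unstimulated shControl libraries and 750, 799 and 747 CPM in treated ones. The sh*Ppargc1b* libraries had 101, 108 and 107 CPM without and 657, 673 and 658 CPM with IFN-β. Its rise was 7.75-fold (2.95, SE 0.06) in shControl and 6.29-fold (2.65, SE 0.06) in sh*Ppargc1b* cells. *Dhx58* was the least abundant of the 3 receptors, at 30.1, 33.3 and 29.6 CPM in unstimulated and 202, 210 and 206 CPM in treated shControl libraries. In sh*Ppargc1b* libraries it had 33.7, 31.5 and 35.7 CPM without and 180, 182 and 185 CPM with IFN-β. The rise of *Dhx58* was 6.64-fold (2.73, SE 0.05) and 5.41-fold (2.44, SE 0.05).

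*Mavs*, the adaptor through which RIG-I and MDA5 signal, went the other way and by little. It had 34.6, 36.9 and 34.4 CPM in unstimulated shControl libraries and 30.5, 32.6 and 32.2 CPM in treated ones. The groups do not overlap, and *Mavs* was called lower at 90.1% of the untreated level (log2 fold change -0.15, SE 0.05, edgeR adjusted p = 0.021), where 24.6% of all genes were called lower. This call was lost with no filter on low counts and without any 1 of 4 shControl libraries, the 3 treated ones and unstimulated replicate 2, with edgeR adjusted p between 0.051 and 0.15. In sh*Ppargc1b* cells *Mavs* had 28.8, 30.2 and 28.0 CPM without and 27.6, 27.7 and 28.8 CPM with IFN-β, and the libraries overlap. That difference was not called (-0.05, SE 0.05, 95% interval -0.16 to 0.06), and 21.2% of all genes were called lower there. When library totals alone set the scale, *Mavs* fell in sh*Ppargc1b* cells as well, by 0.25 on the log2 scale, but on that scale the median of all genes was -0.27 in shControl and -0.22 in sh*Ppargc1b* cells and 2598 genes were higher and 8294 lower in shControl, in place of 4312 and 4481.

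A ratio within a library does not depend on that scale. The summed level per kilobase of *Ddx58* and *Ifih1* over that of *Mavs* was 2.95, 3.17 and 2.76 in unstimulated shControl libraries and 23.0, 23.2 and 22.1 in treated ones. In sh*Ppargc1b* libraries it was 3.78, 3.88 and 4.28 without and 22.6, 22.8 and 21.8 with IFN-β. Receptors thus outweighed their adaptor more in unstimulated sh*Ppargc1b* than in unstimulated shControl libraries, without overlap, and to an overlapping degree after IFN-β. The difference between hairpins was 0.43 on the log2 scale without IFN-β (exact permutation p = 0.1, two-sided, the smallest that 3 against 3 allows) and -0.02 with it (exact permutation p = 0.5). The ratio of *Ddx58* to *Ifih1* went from 1.58 ± 0.0630 to 1.31 ± 0.0216 in shControl and from 1.67 ± 0.0509 to 1.31 ± 0.0213 in sh*Ppargc1b* cells (SD, n = 3 libraries each). That of *Dhx58* to *Ifih1* went from 0.785 ± 0.0272 to 0.672 ± 0.0163 and from 0.798 ± 0.0617 to 0.686 ± 0.0131. *Ifih1* therefore gained on both of its relatives in each hairpin, again without overlap. For these ratios each IFN-β comparison had exact permutation p = 0.1.

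**Figure D2:**
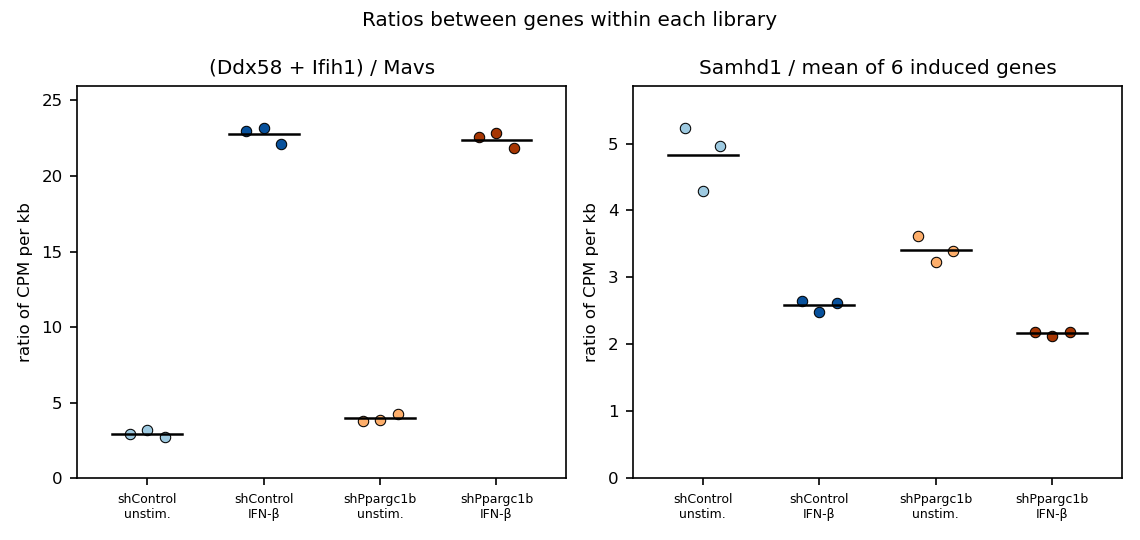
Ratios of CPM per kilobase within each library, on linear axes from 0, with 1 point per library and the bar at the mean of 3. On the left (*Ddx58* + *Ifih1*) / *Mavs* lies at 2.76 to 4.28 without IFN-β and at 21.8 to 23.2 with it, and on the right the ratio of *Samhd1* to the geometric mean of the other 6 induced genes is lower in sh*Ppargc1b* than in shControl libraries in both treatments.

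*Zbp1* had the largest fold rise of the 8, with an interval that overlaps that of *Ifih1*. Its unstimulated shControl libraries had 56.0, 59.0 and 54.6 CPM and the treated ones 447, 469 and 473 CPM. In sh*Ppargc1b* cells *Zbp1* had 55.3, 56.6 and 63.8 CPM without and 413, 381 and 424 CPM with IFN-β. The rise was 8.19-fold (log2 fold change 3.03, SE 0.06) in shControl and 6.93-fold (2.79, SE 0.06) in sh*Ppargc1b* cells. Treated sh*Ppargc1b* libraries lay below treated shControl libraries for *Zbp1* too, and unstimulated ones overlapped.

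*Eif2ak2* and *Adar*, 2 genes whose products compete for double-stranded RNA, rose less. *Eif2ak2* had 122, 125 and 121 CPM in unstimulated and 423, 443 and 417 CPM in treated shControl libraries, and 117, 128 and 127 CPM without and 371, 377 and 376 CPM with IFN-β in sh*Ppargc1b* libraries. That is a 3.48-fold rise (1.80, SE 0.04) in shControl and a 3.02-fold rise (1.60, SE 0.04) in sh*Ppargc1b* cells. *Adar* had 100, 110 and 105 CPM in unstimulated and 320, 325 and 325 CPM in treated shControl libraries. In sh*Ppargc1b* libraries *Adar* had 107, 114 and 118 CPM without and 285, 282 and 292 CPM with IFN-β. Its rise was 3.08-fold (1.62, SE 0.04) and 2.53-fold (1.34, SE 0.04), and the count does not separate the constitutive from the interferon-induced isoform. The ratio of *Eif2ak2* to *Adar* per kilobase rose from 1.86 ± 0.0714 to 2.10 ± 0.0641 in shControl and from 1.74 ± 0.0329 to 2.08 ± 0.0403 in sh*Ppargc1b* cells, without overlap in either (SD, n = 3 each, exact permutation p = 0.1).

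*Samhd1* had the smallest fold rise of the 7 in shControl cells, with an interval that overlaps that of *Adar*, and the highest level throughout. It had 698, 623 and 644 CPM in unstimulated and 1961, 1931 and 1963 CPM in treated shControl libraries. In sh*Ppargc1b* libraries it had 501, 468 and 517 CPM without and 1443, 1398 and 1465 CPM with IFN-β, below shControl in both treatments. The rise of *Samhd1* was 2.98-fold (1.57, SE 0.05) in shControl and 2.90-fold (1.54, SE 0.05) in sh*Ppargc1b* cells. Among treated shControl libraries *Samhd1* stood at 213 ± 1.96 CPM per kilobase, followed by *Zbp1* at 131 ± 4.04 and *Ddx58* at 123 ± 5.20, whose libraries overlap. *Mavs*, at 9.50 ± 0.335 CPM per kilobase, was by then the lowest of the 8 with each of the 3 lengths.

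**Figure D3:**
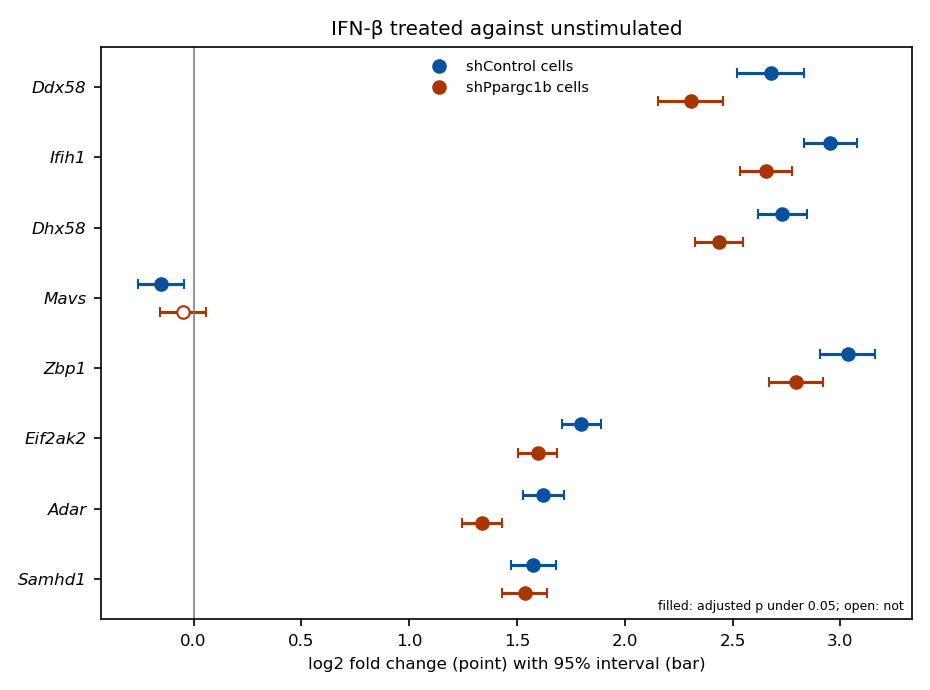
Log2 fold change of IFN-β-treated over unstimulated libraries with its 95% interval, for shControl (blue) and sh*Ppargc1b* (brown) cells, with filled points where the adjusted p is under 0.05. The 7 induced genes lie between 1.34 and 3.03, each further right in shControl cells, and the interval of *Mavs* in sh*Ppargc1b* cells crosses 0.

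The second question was whether knockdown of *Ppargc1b* moved these genes. Without IFN-β, 2 of the 8 were lower in sh*Ppargc1b* cells, *Samhd1* and *Mavs*, and none was called higher. Over all genes 11.1% were called lower and 12.4% higher, and 18.4% were lower without overlap of the libraries. *Samhd1* stood at 75.6% of shControl (log2 fold change -0.40, SE 0.05, edgeR adjusted p = 1.9e-05) and *Mavs* at 82.2% (-0.28, SE 0.05, adjusted p = 0.00064). The remaining 6 had small positive differences that were not called. *Ddx58* (0.17, SE 0.07, edgeR adjusted p = 0.086) and *Adar* (0.11, SE 0.04, adjusted p = 0.097) had the lowest p-values of the 6 in edgeR. *Dhx58* had a difference of 0.12 (95% interval 0.01 to 0.23, adjusted p = 0.13). *Ifih1* (0.09, -0.02 to 0.21), *Zbp1* (0.05, -0.07 to 0.17) and *Eif2ak2* (0.01, -0.08 to 0.10) had intervals that include 0. Some of these calls depended on the fit or on 1 library. With a term for each run of 4 library codes, which the labels do not call a batch, *Ddx58* and *Adar* were called higher (edgeR adjusted p = 0.030 and 0.045), and with no filter on low counts *Ddx58* was (adjusted p = 0.00068). Without unstimulated shControl replicate 2, *Ddx58*, *Ifih1* and *Dhx58* were called higher (edgeR adjusted p = 0.0024, 0.041 and 0.030). Without unstimulated sh*Ppargc1b* replicate 1, *Ddx58* and *Adar* were (adjusted p = 0.048 and 0.024), and without replicate 2 of the same group *Dhx58* was (adjusted p = 0.049). Without replicate 3 of that group *Zbp1* had a difference of -0.01 and *Eif2ak2* of -0.01.

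With IFN-β, all 8 tested genes were lower in sh*Ppargc1b* than in shControl cells, and for all 8 the 3 knockdown libraries lay below the 3 control libraries. Over all genes 12.7% were called lower and 11.5% higher, and 20.7% were lower without overlap. The differences were small and alike for 7 genes, between -0.18 and -0.21 on the log2 scale, which is 86.6% to 88.5% of shControl, and *Samhd1* stood apart at -0.44 (SE 0.05, 73.6%, edgeR adjusted p = 9.1e-06). The median of the 8 was -0.19, against -0.01 over all genes. *Eif2ak2* (-0.19, SE 0.04, adjusted p = 0.0029), *Adar* (-0.18, SE 0.04, 0.0074) and *Ifih1* (-0.21, SE 0.05, 0.0099) had the next smallest p-values in edgeR. *Dhx58* (-0.18, SE 0.05), *Mavs* (-0.18, SE 0.05) and *Zbp1* (-0.19, SE 0.05) had edgeR adjusted p = 0.015, 0.017 and 0.019, and *Ddx58* (-0.20, SE 0.07) had 0.044. With library totals as the scale *Ddx58* was not called (edgeR adjusted p = 0.072), and with no filter on low counts *Mavs* was not (adjusted p = 0.12), which left 7 genes in each case. The call of *Ddx58* was also lost without any 1 of 9 of the 12 libraries, with edgeR adjusted p of 0.063 to 0.12. It was kept without IFN-β-treated shControl replicate 1 and without unstimulated shControl replicates 2 and 3. *Zbp1* was lost without treated sh*Ppargc1b* replicate 2 or treated shControl replicate 3 (adjusted p = 0.055 for each).

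**Figure D4:**
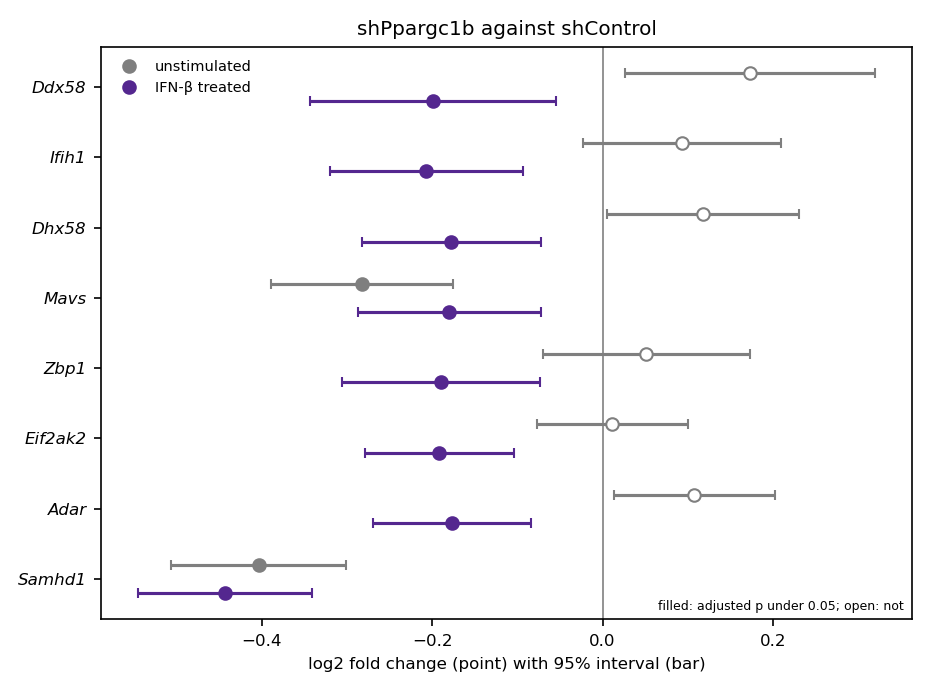
Log2 fold change of sh*Ppargc1b* over shControl with its 95% interval, without (grey) and with (purple) IFN-β, with filled points where the adjusted p is under 0.05. With IFN-β all 8 points are filled and lie left of 0, with 7 between -0.21 and -0.18 and *Samhd1* at -0.44, and without IFN-β only *Mavs* and *Samhd1* do.

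*Samhd1* was lower in sh*Ppargc1b* cells by nearly the same amount in both treatments, and its distance from the other induced genes can be read within each library. Its level over the geometric mean of the other 6 induced genes, per kilobase, was 5.23, 4.29 and 4.96 in unstimulated shControl and 3.62, 3.23 and 3.39 in unstimulated sh*Ppargc1b* libraries. With IFN-β the ratio was 2.65, 2.49 and 2.61 in shControl and 2.19, 2.13 and 2.18 in sh*Ppargc1b* libraries. The hairpins do not overlap in either treatment, and the differences were -0.50 and -0.25 on the log2 scale (exact permutation p = 0.1 each, two-sided, the smallest possible).

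The difference between the IFN-β responses of the hairpins was tested as an interaction. It was negative (a smaller response in sh*Ppargc1b* cells) for 7 genes, from -0.37 to -0.04 on the log2 scale, and of the 8 genes *Adar* alone passed the threshold (-0.28, SE 0.06, edgeR adjusted p = 0.0498). Over all genes 0.669% were called lower and 0.0603% higher. *Ddx58* had the largest difference (-0.37, SE 0.10, 95% interval -0.58 to -0.17), with adjusted p = 0.10 in edgeR. *Ifih1* (-0.30, SE 0.08), *Dhx58* (-0.30, SE 0.07), *Eif2ak2* (-0.20, SE 0.06) and *Zbp1* (-0.24, SE 0.08) had edgeR adjusted p = 0.094, 0.076, 0.14 and 0.22. *Samhd1* (-0.04, 95% interval -0.18 to 0.10) and *Mavs* (0.10, -0.05 to 0.25) had intervals that include 0. The number of called interactions depended on the fit: it was 4 with the term for library codes (*Adar* with *Ddx58*, *Ifih1* and *Dhx58*), 5 by DESeq2, 5 with no filter and 0 with library totals, where *Adar* had edgeR adjusted p = 0.11. The call of *Adar* was also lost without any 1 of 9 libraries (edgeR adjusted p = 0.059 to 0.17) and kept without unstimulated shControl replicate 2, unstimulated sh*Ppargc1b* replicate 1 or treated sh*Ppargc1b* replicate 2. Without unstimulated shControl replicate 2, *Ddx58*, *Ifih1* and *Dhx58* were called as well (adjusted p = 0.011, 0.033 and 0.037). That library had the highest level of all 3 receptors among the unstimulated shControl libraries.

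Other genes of the same pathways were followed in 5 lists. Their counts are to be read beside the shares over all genes given above, for IFN-β 23.7% higher and 24.6% lower in shControl and 21.4% and 21.2% in sh*Ppargc1b* cells, for knockdown 12.4% and 11.1% without and 11.5% and 12.7% with IFN-β. Several counts were near those shares. The split of the IFN-β counts also depends on the scale. With library totals the higher and lower genes in shControl cells were 15 and 16 for RIG-I-like receptor signalling, 5 and 13 for DNA sensing, 9 and 10 for clearance and editing, 5 and 11 for PKR and 6 and 2 for ZBP1. In sh*Ppargc1b* cells they were 16 and 14, 5 and 10, 8 and 8, 4 and 10, and 6 and 2 in the same order. In the list of RIG-I-like receptor signalling, 34 genes that switch the receptors on and off and carry their signal, 19 rose and 8 fell with IFN-β in shControl cells and 16 rose and 6 fell in sh*Ppargc1b* cells. The median log2 fold changes of the list were 0.21 and 0.10, against -0.03 and -0.02 over all genes. *Ifit3*, an antiviral effector, rose most, by 5.92 (SE 0.15) and 5.31 (SE 0.14) on the log2 scale, and *Irf7*, the interferon regulatory factor that amplifies type I interferon, by 4.02 and 3.30. The largest falls were those of *Ddx3x*, an RNA helicase, with -0.48 and -0.45. *Irf3*, the constitutive partner of *Irf7*, fell by 0.22 and by 0.17. Of the ubiquitin ligases that act on RIG-I, *Trim25* rose by 1.33 and 1.19 and *Rnf135* by 1.62 and 1.47. *Rnf125* was not called (-1.17, SE 0.56, and -0.49, SE 0.51). It was near the floor, at 0.281 CPM in unstimulated and 0.123 CPM in treated shControl cells, too low to show a response. The kinase genes *Tbk1* and *Ikbke* rose, by 0.69 and 0.52 and by 0.83 and 0.68.

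Knockdown without IFN-β raised 6 genes of this list and lowered 6, with *Irf7* (0.59, SE 0.10, edgeR adjusted p = 0.00040) and *Nlrx1*, a mitochondrial regulator of MAVS (-0.28, SE 0.06, adjusted p = 0.0041), at the ends. With IFN-β 1 was higher and 11 were lower in sh*Ppargc1b* cells, of 34, and the median was -0.11. The one that was higher was *G3bp1*, a stress granule protein (0.17, edgeR adjusted p = 0.044), and *Ikbke* was lowest (-0.34, SE 0.05, adjusted p = 7.3e-05). *Tbk1* (-0.15), *Tank* (-0.16), *Azi2* (-0.23) and *Trim25* (-0.19) were among the 11 lower genes, and *Irf3* was not called (0.02). The interaction was called for 4 of the 34, all with a smaller rise in sh*Ppargc1b* cells: *Irf7* (-0.72, SE 0.14), *Ddx60*, a helicase related to the receptors (-0.46, SE 0.10), *March5*, a mitochondrial ubiquitin ligase (-0.31, SE 0.06), and *Tomm70a*, a mitochondrial import receptor that binds MAVS (-0.28, SE 0.05). Their edgeR adjusted p ranged from 0.021 to 0.043. With library totals as the scale, the interaction was called for 1 gene of this list.

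The cytosolic DNA sensing list held 18 genes, of which 5 rose and 7 fell with IFN-β in each hairpin. *Mb21d1*, which encodes the DNA sensor cGAS, rose most (1.53 and 1.29) and *Tmem173*, which encodes STING, by 0.46 and 0.45. *Xrcc6*, a DNA repair protein that can act as a sensor, fell by 1.42 and by 1.03. Knockdown without IFN-β raised *Enpp1*, the hydrolase of the cGAS product (0.41, SE 0.14, edgeR adjusted p = 0.043), and lowered *Trim56*, a ubiquitin ligase (-0.22, SE 0.04, adjusted p = 0.0017). With IFN-β *Enpp1* was again the one higher gene (0.48), and 4 genes were lower, led by *Trim56* (-0.35, SE 0.04, edgeR adjusted p = 2.9e-05). Neither *Mb21d1* nor *Tmem173* was called between hairpins in either treatment, and the DNA sensor *Aim2* had the one called interaction (-0.28, SE 0.06, edgeR adjusted p = 0.038). That call was lost with library totals.

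Of 24 genes of nucleic acid clearance and editing, 22 were tested. With IFN-β 10 rose and 6 fell in shControl and 11 rose and 6 fell in sh*Ppargc1b* cells. The exonuclease *Isg20* rose by 5.60 and 5.12, and *Adat1*, a tRNA deaminase, fell by 1.06 and by 1.09. *Pnpt1* (1.64 and 1.42), *Xrn1* (1.11 and 0.93) and *Apobec3* (1.73 and 1.37) also rose. Knockdown lowered 6 genes without and 8 with IFN-β and raised 2 and 1. *Apobec1*, a cytidine deaminase, was lowest without IFN-β (-0.63, SE 0.07, edgeR adjusted p = 1.1e-05), and *Pld4*, an endolysosomal exonuclease, was lowest with it (-0.61, SE 0.10, adjusted p = 0.00046). *Dnase1l3*, a DNase, was highest without IFN-β (1.40, SE 0.46, adjusted p = 0.039, edgeR). It was near the floor there, at 0.131 CPM in shControl and 0.359 CPM in sh*Ppargc1b* cells. Only its treated libraries, at 4.65 and 7.05 CPM, brought its mean above the limit for naming. *Dnase2a*, the lysosomal DNase, was the one gene higher with IFN-β (0.19, edgeR adjusted p = 0.0050). The interaction was called for *Isg20* (-0.48, SE 0.10, edgeR adjusted p = 0.044), a call that was lost with library totals and by limma-voom.

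Among 18 genes of PKR, translation control and stress, 6 rose and 6 fell with IFN-β in shControl cells and 6 rose and 7 fell in sh*Ppargc1b* cells. *Ddit3*, a stress transcription factor, rose most (1.08 and 0.94) and *Eif2b3*, a subunit of the exchange factor of eIF2, fell by 1.45 and by 0.97. The same *Eif2b3* was the most raised by knockdown, by 0.38 (SE 0.11) without and 0.86 (SE 0.12) with IFN-β. *Eif2ak1*, a kinase of the PKR family, was lowest without IFN-β (-0.19), and *Ppp1r15b*, which helps to remove the phosphate that PKR adds, was lowest with it (-0.19). Knockdown raised 3 and lowered 2 genes without IFN-β and raised 2 and lowered 3 with it, and no interaction was called.

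Of 12 genes of ZBP1 and death signalling, 9 rose and 1 fell with IFN-β in each hairpin. *Mlkl*, the executor of necroptosis, rose by 2.41 and 2.22, while *Ripk3*, the kinase upstream of it, was not called in either hairpin (0.05 and 0.00). *Casp6* fell by 0.69 and by 0.55. Knockdown without IFN-β raised *Nlrp3* (0.17) and lowered 3 genes, with *Pycard*, the inflammasome adaptor, lowest (-0.40, SE 0.04, edgeR adjusted p = 3.2e-06). With IFN-β 5 were lower and none higher, led by *Casp1* (-0.36, SE 0.04, adjusted p = 3.0e-05, edgeR), and no interaction was called. The part of the shifts in marker sums given above in these differences was not tested.

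**Figure D5:**
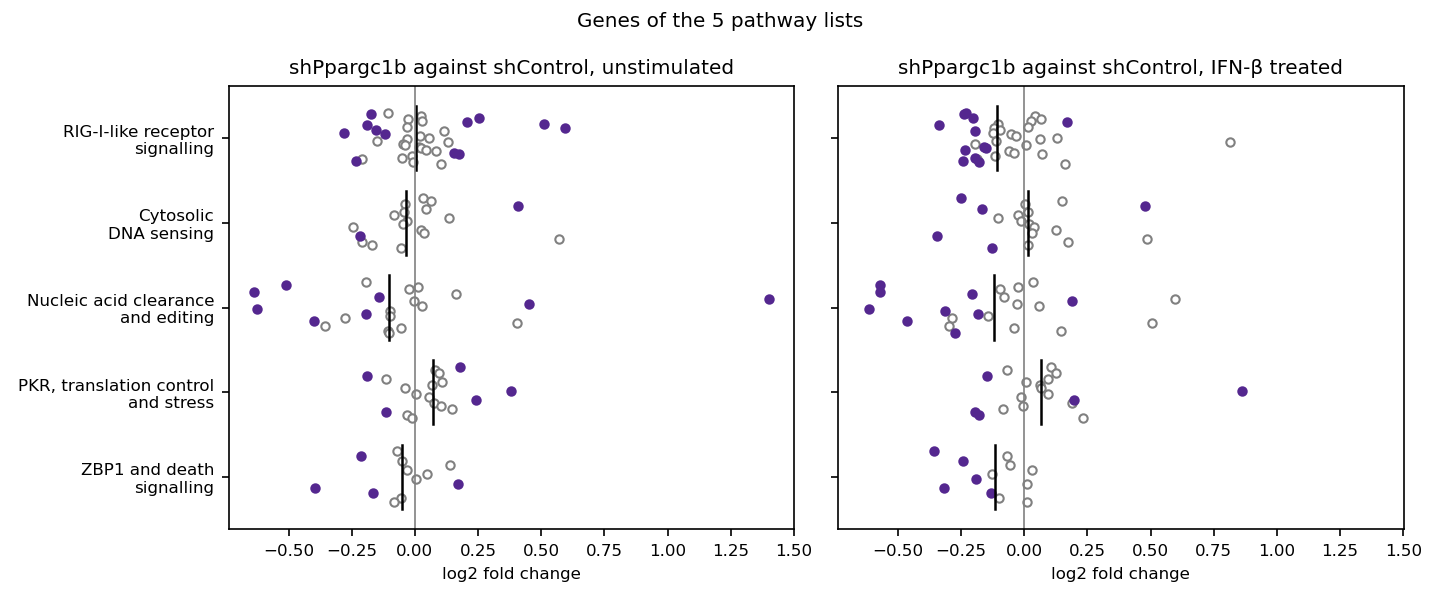
Log2 fold change of sh*Ppargc1b* over shControl for each tested gene of the 5 pathway lists, without IFN-β on the left and with it on the right, with filled points where the adjusted p is under 0.05 and a vertical bar at the median of each list. In the RIG-I-like receptor list 6 filled points lie right and 6 left of 0 without IFN-β, and 1 lies right and 11 left with it.

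The gene whose level followed each sensor most closely was found among 8841 genes as the highest Pearson correlation of log2 CPM over the 12 libraries. For the 7 induced genes the points share the large step between untreated and treated libraries, so the coefficients are given as a description. *Ddx58* was followed by *Ifit1* (r = 0.9996), *Ifih1* by *Ifi209* (0.9997), *Dhx58* by *Herc6* (0.9995), *Zbp1* by *Uba7* (0.9997), *Eif2ak2* by *Igtp* (0.9994) and *Adar* by *Tpst1* (0.9996). *Samhd1* was followed by *Themis2* (0.998) and *Mavs* by *Igf1* (0.979). Within the 6 unstimulated libraries of both hairpins, these pairs of the 7 induced genes had 0.671 (*Eif2ak2*) to 0.973 (*Samhd1*). Within the 6 treated ones they had 0.940 (*Zbp1*) to 0.9999 (*Ifih1*). *Mavs* changed little with IFN-β, and its coefficient with *Igf1* was 0.983 and 0.984 within the unstimulated and the treated libraries. Among the sensors themselves, *Ddx58* with *Ifih1*, *Dhx58* with *Zbp1* and *Ifih1* with *Dhx58* had the highest coefficients (0.9992 each). *Samhd1* correlated least with the other induced genes (0.959 to 0.973). *Mavs* had negative coefficients with all 7, from -0.37 to -0.14.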

How the data were processed

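RNA-seq of 12 libraries in 4 groups of 3 was analysed. The authors prepared ribosome-depleted libraries, trimmed reads with Trim Galore (0.6.0) and mapped them to mm10 with STAR (2.7.8a per the submitters' processing notes; the methods give another release). The deposited values are raw counts of read pairs per gene, neither normalized nor pooled. Read pairs that fall on more than one gene are not assigned by such counting, and the strand setting is not given in the sources used here. Depth was 49919648 to 77726101 counts per library.

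Genes passing edgeR's filter (minimum count 10, total 15) were scaled by TMM and fitted with edgeR 4.0.16 (R 4.3.3; quasi-likelihood test, 1 mean per group, all 12 libraries, Benjamini-Hochberg over 18228 genes, threshold 0.05). Standard errors are the log2 fold change over the root of F, and intervals are 95%. Single ratios were compared by exact two-sided permutation tests. Group labels came from the sample titles, and replicate numbers follow record order and pair nothing. The fit was tested on simulated data. Alternatives were DESeq2 size factors, library totals, DESeq2 1.42.0, limma-voom 3.58.1, no filter, the libraries of a contrast alone, a term for library codes, a log2 fold change of at least 1, and leaving out each library. The genes and lists were chosen with earlier results of these data known. Named genes are every sensor, the largest called rise and fall of each list in each comparison (mean log2 CPM of at least 1), each sensor's nearest gene (mean log2 CPM of at least 3), *Ppargc1b* and genes sharing exons. Other list genes were named for their role after their values were seen. The authors' comparisons were not used.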

Additional observations from a re-analysis of the deposited data

Results flagged for a closer look

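The effect of IFN-β differed between shControl and sh*Ppargc1b* cells, by the interaction test of edgeR over all genes, for 1 of the 8 sensors and 6 genes of the pathway lists. The 6 were 4 of 34 genes of RIG-I-like receptor signalling, 1 of 18 of DNA sensing and 1 of 22 tested of clearance and editing. All 7 rose less in sh*Ppargc1b* cells. Most called interactions over all genes had that direction (0.669% of genes called lower and 0.0603% higher). The differences of log2 fold changes were -0.28 for *Adar* (adjusted p = 0.0498), -0.28 for *Aim2* (0.038), -0.46 for *Ddx60* (0.043), -0.72 for *Irf7* (0.024), -0.48 for *Isg20* (0.044), -0.31 for *March5* (0.039) and -0.28 for *Tomm70a* (0.021). With library totals as the scale, *Adar* was not called (edgeR adjusted p = 0.11). The RIG-I-like, DNA sensing and clearance lists then had 1, 0 and 0 called interactions. By limma-voom the clearance list had 0. With 3 libraries in each group, single libraries were not tested for lying far from the others.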

How the results depend on the processing

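The labels give no replicate numbers that could pair the libraries, so the term for runs of library codes was the one blocked fit. The rise of 7 genes with IFN-β kept its direction and its call in both hairpins under all 20 alternatives, 12 of which left out 1 library. Leaving out single libraries gave 7 to 8 called genes for IFN-β in shControl, 7 in sh*Ppargc1b* cells, 2 to 5 for knockdown without and 6 to 8 with IFN-β, and 0 to 4 for the interaction. Of the other alternatives, a term for each run of 4 library codes gave 4 called genes for knockdown without IFN-β and 4 interactions, library totals alone 0 interactions, DESeq2 5 and no filter 5. Over all genes the interaction was called for 133, and for 394 by DESeq2, 525 without a filter, 425 with the library code term, 84 with library totals, 9 at a log2 fold change of at least 1 and 36 to 271 when single libraries were left out. With a log2 fold change of at least 1 required, 0 of the 8 sensors were called by edgeR in both knockdown comparisons and the interaction. Each difference of these 8 genes is below that size. Called genes of the lists changed under library totals to 1 (DNA sensing, knockdown without IFN-β) and, for the interaction, to 1 (RIG-I-like), 0 (DNA sensing) and 0 (clearance). Under DESeq2 the interaction gave 2 (DNA sensing), 3 (clearance) and 1 (ZBP1), under limma-voom 0 (clearance) and with DESeq2 size factors in edgeR 1 (ZBP1). Values near 0 changed sign. *Eif2ak2* without IFN-β was at -0.00220 with library totals and between -0.012 and 0.055 when single libraries were left out, *Zbp1* between -0.012 and 0.092, and the interaction of *Samhd1* between -0.070 and 0.014. Between hairpins, the log2 ratio of *Ddx58* to *Ifih1* with IFN-β ranged from -0.00442 to 0.020, that of *Dhx58* to *Ifih1* without it from -0.012 to 0.088 and that of *Eif2ak2* to *Adar* with it from -0.036 to 0.00819. The cause of these changes was not tested. Depth did not limit the 8 genes, each with at least 1400 counts per library, but *Trex1* could not be counted.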
